A study of Homo sapiens with 26 samples.

Results

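The HOX genes encode the homeodomain transcription factors that give cells their position along the head to tail axis. They were taken here as the genes of the assembled annotation whose names are HOXA, HOXB, HOXC or HOXD followed by digits alone, which gave 39 of 26313 named genes. In mammals they lie in 4 clusters, and within a cluster their order on the chromosome follows the order of the body regions in which they act, from anterior genes (paralogs 1 to 3) through central genes (4 to 8) to posterior genes (9 to 13). Polycomb proteins keep unused HOX genes silent and trithorax-type H3K4 methyltransferases keep used ones active, while CDX2 and retinoic acid are known upstream activators. Colon epithelium keeps a HOX pattern in the adult, and CpG-rich HOX promoters are a well-known site of altered DNA methylation in tumours. HOXA held 11 of the members, HOXB 10, and HOXC and HOXD 9 each.

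All libraries came from HCT116, a human colorectal cancer cell line. For RNA-seq, 3 libraries carried a hairpin against ZBTB24 (shZBTB24) and 3 a non-targeting hairpin (shNT), 2 came from lines with FLAG-tagged ZBTB24 and 2 from lines with the FLAG tag alone, and the last pair was 1 library of HCT116 with DNMT3B knocked out and 1 of wild-type HCT116. For ChIP-seq with a FLAG antibody, 3 FLAG-ZBTB24, 2 FLAG-DNMT3B and 2 tag-only lines were used, each with its input. ZBTB24 is a zinc finger protein and DNMT3B a DNA methyltransferase that sets new methylation, and mutation of either causes ICF syndrome. Hairpin and FLAG constructs were delivered by lentivirus with puromycin selection, and each FLAG line was expanded from 1 cell, so differences between clones and between groups cannot be told apart. Whether the hairpin replicates came from separate cultures is not stated, so its p-values cover the spread among these samples alone, and that spread may be technical.

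Expression was available as 1 pooled FPKM value per group (fragments scaled to transcript length and library depth), with no value per library, so no error between libraries can be given and the depth is unknown. The tables hold part of the loci. No locus had an absolute log2 fold change under 0.50 in either ZBTB24 table or under 1 in the knockout table, and no locus of the shZBTB24 table had an unadjusted p above 0.0549. A HOX gene that is missing from a table may have been unchanged, filtered or untested, which cannot be told apart. ZBTB24 was not listed in the shZBTB24 table, so the knockdown could not be checked there, whereas the locus of MICAL1 and ZBTB24 stood at 155 FPKM with FLAG-ZBTB24 and 17.8 FPKM with the tag alone by the authors' deposited table. In the knockout table all 2243 loci under the knockout's label were higher than wild type, and all 1112 loci under a further label, DNMT3BKOshZB, were lower. That label matches no sample, so its rows are described on their own. Whether they come from another library or are the lower loci of the knockout itself under a wrong label cannot be told from the files. The direction of a listed locus is thus fixed by its label. DNMT3B was not among the loci under the knockout's label. Of 9 colon epithelial markers, KRT8, KRT18, EPCAM and CDH1 had wild-type values, from rows of the label DNMT3BKOshZB, of 839, 739, 179 and 27.3 FPKM by the authors' deposited table. Lower wild-type values were those of CDX2, at 8.39 FPKM from the same label, and KRT20, at 0.558 FPKM from the knockout's label. The remaining markers had no wild-type value.

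HOXB7, a central HOX gene, rose with shZBTB24 relative to shNT, and it was also the 1 HOX gene with a ZBTB24 peak at its promoter. HOXB7 stood at 20.4 FPKM with shZBTB24 and 9.48 FPKM with shNT by the authors' deposited table (a log2 fold change of 1.11, q = 0.00823). HOXA7, its paralog in the HOXA cluster, stood at 9.78 FPKM with shZBTB24 and 4.26 FPKM with shNT by the authors' deposited table (a log2 fold change of 1.20, p = 0.00515, q = 0.106) and did not pass the threshold of q under 0.05. These were the 2 HOX loci listed, so 5.13% of the HOX genes were listed, against 8.04% of all named genes. Of all 1965 listed loci, 12.2% rose past the same threshold by the authors' deposited table, and 1 of the 2 HOX loci did. The median log2 fold change was 1.15 over these 2 HOX loci and 0.55 over all listed loci by the authors' deposited table. The latter is a signed median, with 1081 loci higher and the rest lower, and lies at the 0.50 limit of the table. Ranked from the highest log2 fold change, HOXA7 came 195 and HOXB7 242 of 1965. No other gene of the assembly overlapped HOXB7. HOXA7 overlapped the antisense gene HOXA-AS3 by 2210 bp, and whether quantification used strand is not stated, so reads of that pair cannot be told apart. Of all loci in that table, 9.82% fell past the threshold, with 0 HOX loci among them, and 97% had an unadjusted p under 0.05, as did both HOX loci, by the authors' deposited table.

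**Figure D1:**
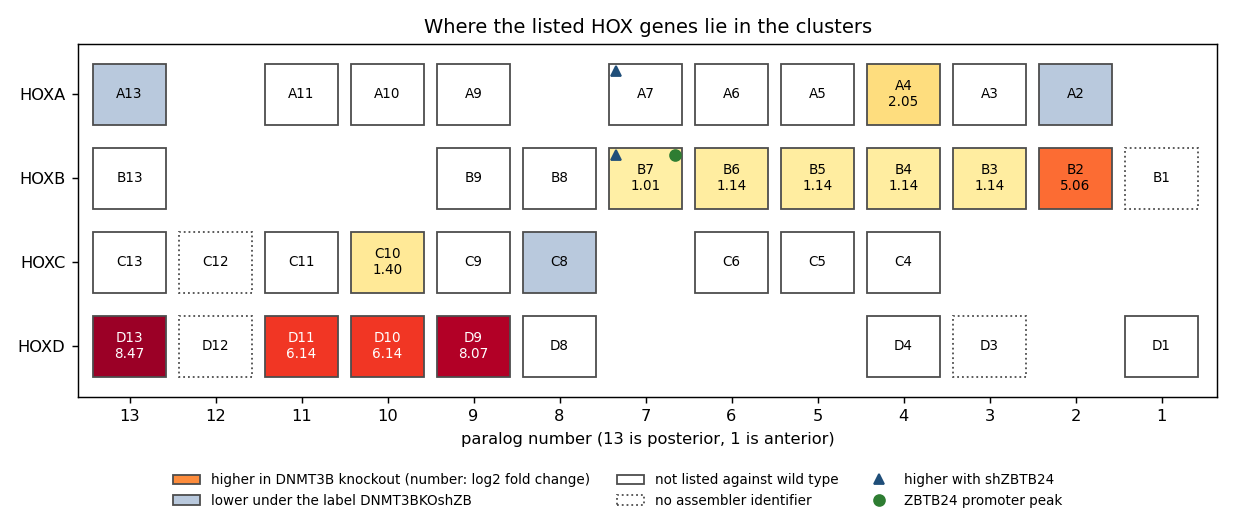
Each box is 1 of the HOX genes shown, placed by cluster (rows) and paralog number (columns, 13 at the left and 1 at the right). Filled boxes with numbers give the authors' log2 fold change of the DNMT3B knockout over wild type (1 library each; HOXB3 to HOXB6 and HOXD10 with HOXD11 are single loci that share a value), triangles mark loci with higher values with shZBTB24 and the dot marks the ZBTB24 promoter peak at HOXB7. Blue boxes are lower under the label DNMT3BKOshZB, and dotted boxes have no assembler identifier. The highest values, 6.14 to 8.47, stand at HOXD9, HOXD10, HOXD11 and HOXD13.

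**Figure D2:**
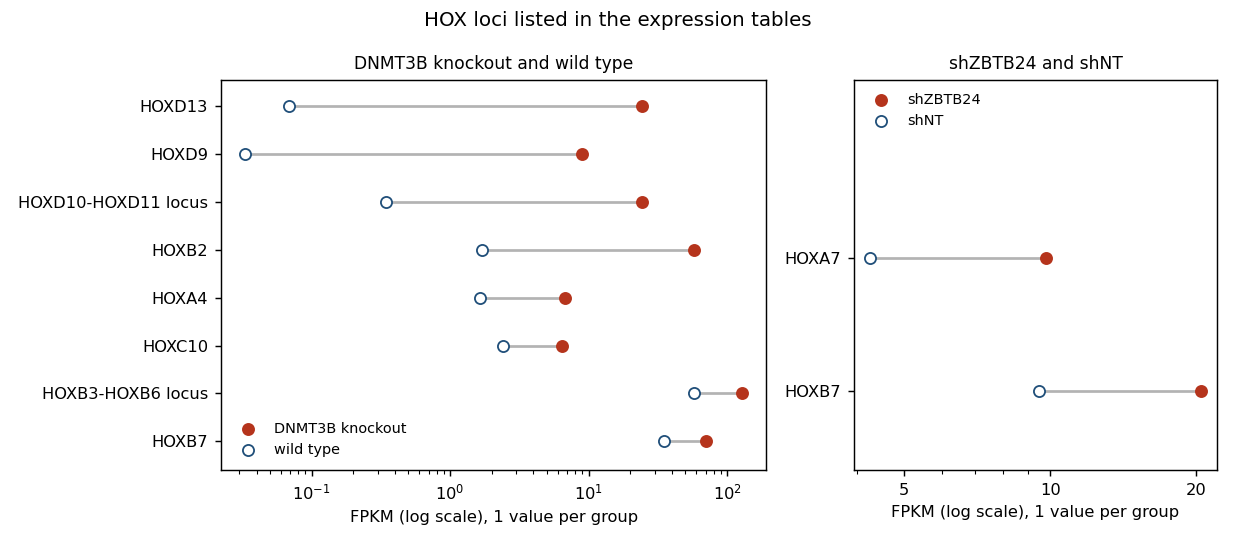
Pooled FPKM on log axes for HOX loci listed by the authors' deposited tables, with filled points for the DNMT3B knockout or shZBTB24 and open points for wild type or shNT. Left, 8 loci of the knockout comparison with 1 library per group; right, HOXA7 and HOXB7 of the knockdown comparison with 3 libraries pooled per group. HOXD13, HOXD9 and the HOXD10 and HOXD11 locus lie under 1 FPKM in wild type.

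FLAG-ZBTB24 had 2 peaks in the HOX clusters, and both stood high in the authors' merged list of 6173 peaks. That list gives no peaks per library, and the peaks are those of the added, tagged protein. The HOXB7 peak (hg19, chromosome 17, 46688045 to 46688608) was 564 bp wide, against a median of 191 bp over the list, and its midpoint lay 57 bp inside the HOXB7 start. Its score was 34.6, rank 26 of 6173, where the median score was 8.26. The score is the authors' own, and no source used here states its kind. The peak also touched an unnamed transcript of the HOXB8 locus, whose last base lies 105 bp upstream of the HOXB7 start. The HOXD peak (chromosome 2, 177005657 to 177005942) was 286 bp wide with a score of 24.4, rank 114. It lay between genes, 11.3 kb from the start of HOXD8, 10.3 kb from that of HOXD4, 3.97 kb from that of the antisense gene HOXD-AS2 and 9.23 kb from that of MIR10B. Over HOXA and HOXC there was no ZBTB24 peak, and the nearest outside them were 77.7 kb and 152 kb away. Per 100 kb this made 0.502 peaks over HOXB, 1.02 over HOXD and 0 over HOXA and HOXC, against 0.199 over the annotated genome. Each rate above 0 rests on 1 peak, and any cluster of this length with 1 peak exceeds the genome value. These rates therefore show no enrichment.

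A promoter peak was counted where a peak midpoint lay within 1000 bp of a transcript start. By this count 1 of 39 HOX genes had a ZBTB24 promoter peak, against 3.73% of all named genes. HOXB7 was 1 of 14 loci that rose among the 118 loci of the shZBTB24 table with a promoter peak. That is 11.9%, and among loci without a promoter peak 12.2% rose by the authors' deposited table. Ranked by peak score, HOXB7 came first of those 14 loci, ahead of IFIH1 (score 25.9), a sensor of double-stranded RNA, and SESN1 (18.8), a stress-induced regulator of growth signalling. Of the 26 peaks that scored at least as high as the one at HOXB7, 12 were promoter peaks and 4 of these 12 belonged to genes listed after knockdown. HOXB7 was the 1 of these 4 past the threshold by the authors' deposited table. The others were the promoter peaks of WASF1, of CAMKMT with PREPL, and of C22orf34. The score cut is that of HOXB7 itself, so its place among these peaks was fixed in advance. Of all listed loci, 12.2% rose and 9.82% fell past the threshold by the authors' deposited table. Whether peak score goes with expression was not tested.

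**Figure D3:**
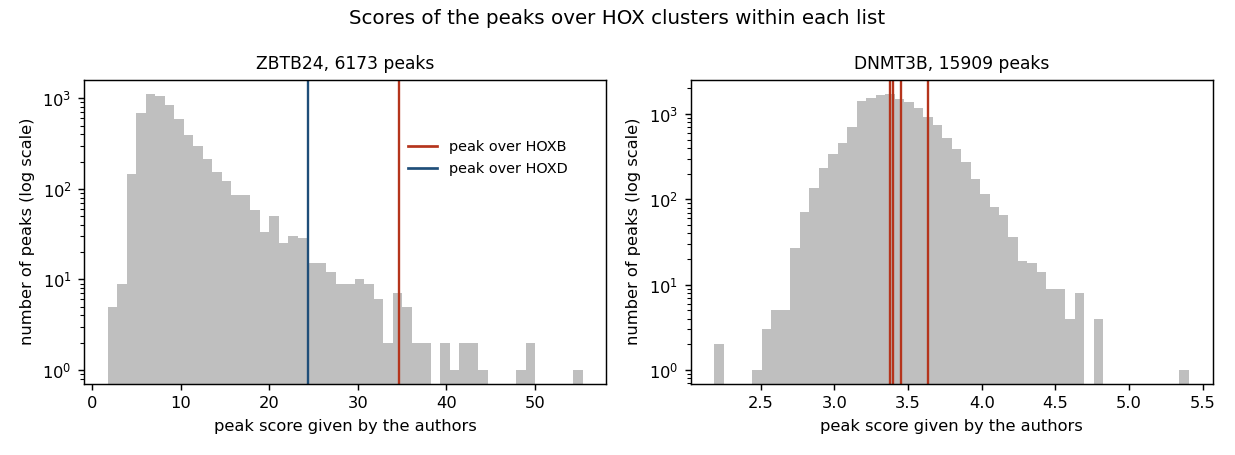
Histograms of the authors' peak scores in each merged list, with the number of peaks on a log axis. Vertical lines mark the peaks over HOXB and HOXD: the ZBTB24 peaks at 34.6 and 24.4 lie in the upper tail of 6173 peaks, and of the 4 DNMT3B peaks 3 lie near the middle of 15909 peaks, at 3.38 to 3.45, and 1 lies higher, at 3.63.

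DNMT3B peaks over the HOX clusters all lay in HOXB in the authors' merged list of 15909 peaks, which gives no peaks per library. HOXB held 4 of them, covering 2.70% of its 199 kb, against 1.85% of the annotated genome. Over HOXA, HOXC and HOXD there were 0, and the nearest were 325 kb, 188 kb and 914 kb away. Per 100 kb this made 2.01 peaks over HOXB, against 0.514 over the annotated genome. HOXA, HOXC and HOXD are 107, 117 and 98.1 kb long, and at the genome rate 0 peaks over such a length is not unusual. The HOXB rate rests on 4 peaks, 3 of them close together, and a preference for HOXB was not tested. The first of the 4 lay inside HOXB6, a central HOX gene, and its antisense partner HOXB-AS3 (chromosome 17, 46674498 to 46675748, score 3.45), 8.85 kb beyond the end of HOXB7. The other 3 lay in the gap between HOXB9 and HOXB13, within 6.78 kb of each other (46711856 to 46713748, 46715207 to 46716284 and 46717488 to 46718637, scores 3.63, 3.40 and 3.38). All of these 3 fell inside 1 unnamed transcript of the minus strand that was 13.2 kb long in the authors' assembly. That transcript ends 1.71 kb upstream of MIR196A1, which encodes miR-196a, a microRNA known to target HOX messages such as that of HOXB8. All 4 peaks were narrower than the list's median of 2482 bp. The one with the score of 3.63 ranked 2957 of 15909, with 18.6% of the list above it, and the other 3 scored near the list's median of 3.39, with 41.1% to 52.3% of the list above them. No HOX gene had a DNMT3B peak at its promoter, against 0.471% of named genes.

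**Figure D4:**
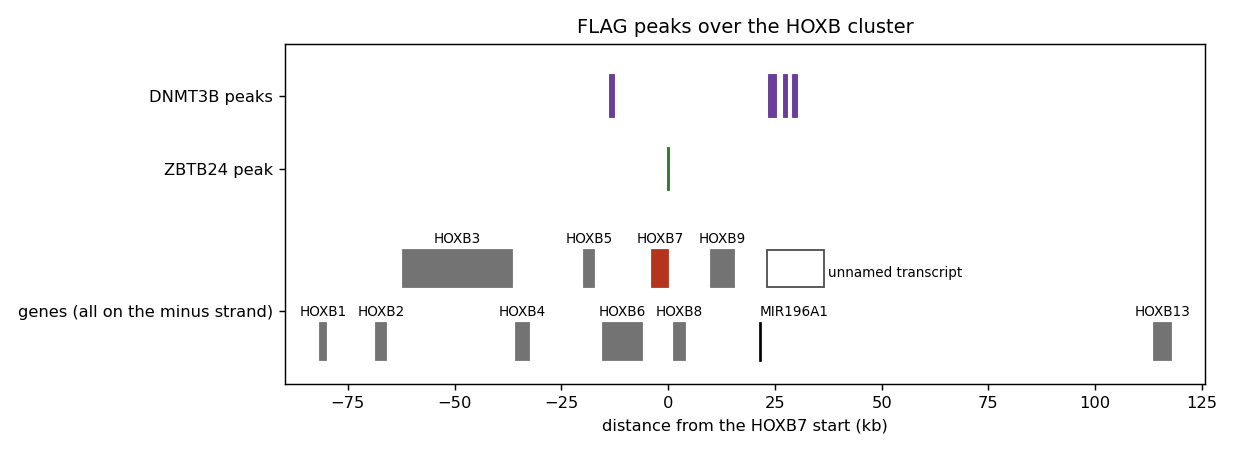
Map of the HOXB cluster to scale, with distance from the HOXB7 start in kb (the HOXB genes are on the minus strand, so their starts are at the right ends). The ZBTB24 peak sits at the HOXB7 start, 1 DNMT3B peak in HOXB6 and 3 in an unnamed transcript beyond MIR196A1.

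The mature strand of MIR196A1 is shown with that of its HOXA relative MIR196B, since 3 DNMT3B peaks lie upstream of MIR196A1. Both are from RefSeq, read 5′ to 3′, and capitals mark the seed, bases 2 to 8, which sets target choice.
hsa-miR-196a-5p: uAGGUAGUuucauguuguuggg
hsa-miR-196b-5p: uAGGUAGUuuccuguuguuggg
They share the seed and differ by the substitution A12C, counted from the 5′ base of miR-196a-5p. Neither MIR196A1 nor MIR196B was listed in an expression table, so no level stands beside these peaks.

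In the DNMT3B knockout library, posterior HOXD genes had the highest fold changes among the HOX loci. HOXD13, the last gene of the cluster and a patterning factor of the digits, stood at 24.2 FPKM in the knockout and 0.0682 FPKM in wild type by the authors' deposited table (a log2 fold change of 8.47, q = 0.622). The locus of HOXD10 and HOXD11, which act in limb patterning, stood at 24.2 FPKM in the knockout and 0.342 FPKM in wild type by the authors' deposited table (a log2 fold change of 6.14, q = 0.559). HOXD9 stood at 8.96 FPKM in the knockout and 0.0332 FPKM in wild type by the authors' deposited table (a log2 fold change of 8.07, q = 0.724). These were the 3 of 9 HOX loci under 1 FPKM in wild type, as were 56.8% of all loci under the knockout's label by the authors' deposited table. HAGLR, the long non-coding RNA of the anterior HOXD end, stood at 2.98 FPKM in the knockout and 0.394 FPKM in wild type by the authors' deposited table (a log2 fold change of 2.92, q = 0.485). HOXD8, HOXD4 and HOXD1 were not listed, nor were HOXD12 and HOXD3. HOXB1, HOXC12, HOXD3 and HOXD12 carry no assembler identifier in the annotation, the 4 HOX genes of which this holds. Each group had 1 library, so these differences have no replicate check, and the q compares those libraries.

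**Figure D5:**
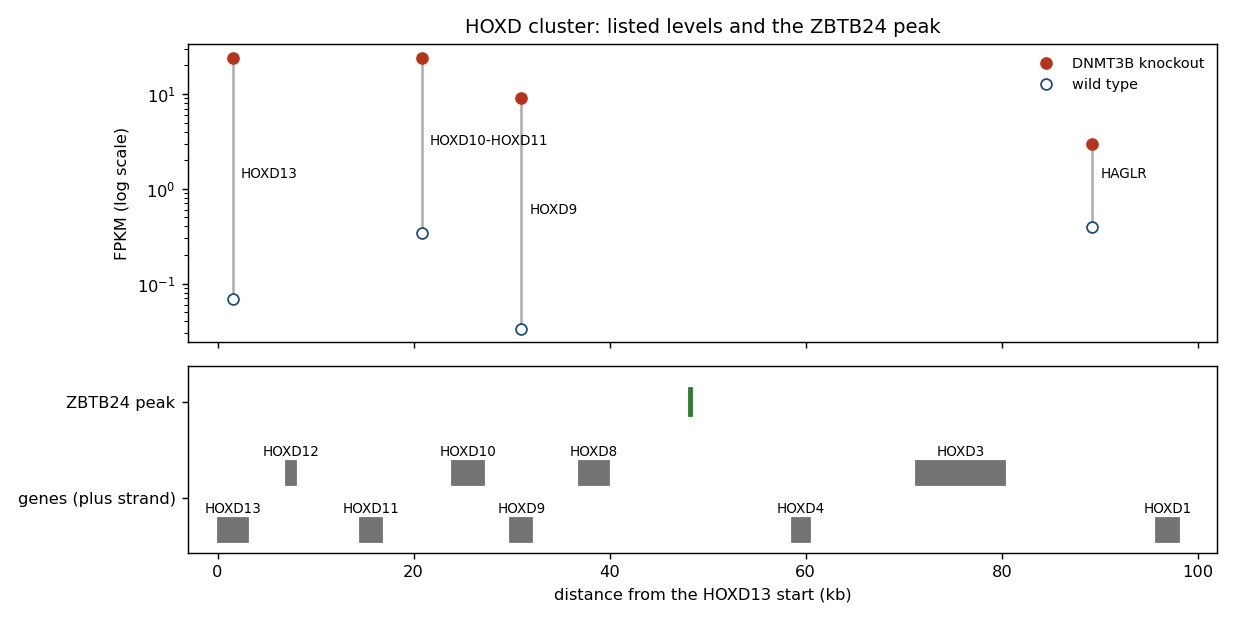
Upper panel, FPKM on a log axis of the HOXD loci listed for the DNMT3B knockout (filled) and wild type (open), 1 library each, placed by distance from the HOXD13 start in kb. Lower panel, the HOXD genes and the ZBTB24 peak to scale: the 3 listed HOX loci lie on the posterior side of the peak and HAGLR on the anterior side.

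The promoters of HOXD13 to HOXD8 are given here because they cover listed and unlisted neighbours, and DNMT3B methylates CpG sites. Each is the 250 bases before the start, from RefSeq (GRCh38.p14, plus strand), with CpG in capitals. Windows were matched for 20 of 39 HOX genes, and those of HOXB7 and HOXD9 were not among them.
HOXD13 promoter, chr2:176092471-176092720: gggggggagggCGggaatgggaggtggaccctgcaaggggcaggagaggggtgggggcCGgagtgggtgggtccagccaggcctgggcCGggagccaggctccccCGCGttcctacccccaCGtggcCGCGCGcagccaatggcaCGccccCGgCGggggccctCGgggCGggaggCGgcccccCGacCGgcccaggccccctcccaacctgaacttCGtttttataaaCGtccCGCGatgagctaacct
HOXD12 promoter, chr2:176099545-176099794: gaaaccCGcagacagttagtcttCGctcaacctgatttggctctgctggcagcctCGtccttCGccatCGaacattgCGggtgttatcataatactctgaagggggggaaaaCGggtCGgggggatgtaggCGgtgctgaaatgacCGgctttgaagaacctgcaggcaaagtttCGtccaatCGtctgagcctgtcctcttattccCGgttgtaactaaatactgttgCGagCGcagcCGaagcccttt
HOXD11 promoter, chr2:176107030-176107279: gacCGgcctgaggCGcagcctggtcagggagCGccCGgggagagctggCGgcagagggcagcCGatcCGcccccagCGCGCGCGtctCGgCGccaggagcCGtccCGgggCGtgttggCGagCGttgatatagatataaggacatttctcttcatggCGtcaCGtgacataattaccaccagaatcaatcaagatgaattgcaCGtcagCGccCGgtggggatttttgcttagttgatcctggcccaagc
HOXD10 promoter, chr2:176116528-176116777: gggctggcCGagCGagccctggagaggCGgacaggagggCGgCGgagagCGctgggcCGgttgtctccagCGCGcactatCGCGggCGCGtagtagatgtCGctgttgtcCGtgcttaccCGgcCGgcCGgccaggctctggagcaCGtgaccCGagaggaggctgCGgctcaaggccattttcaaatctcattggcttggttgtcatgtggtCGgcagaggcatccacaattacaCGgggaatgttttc
HOXD8 promoter, chr2:176129455-176129704: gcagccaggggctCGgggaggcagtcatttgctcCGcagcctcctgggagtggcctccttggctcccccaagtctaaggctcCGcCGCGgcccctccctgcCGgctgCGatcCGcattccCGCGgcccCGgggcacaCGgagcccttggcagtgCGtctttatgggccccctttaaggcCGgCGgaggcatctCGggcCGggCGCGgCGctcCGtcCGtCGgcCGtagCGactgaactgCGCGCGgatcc
The windows of HOXD13, HOXD11 and HOXD10, which were listed, held 21, 23 and 23 CpG. Those of HOXD12 and HOXD8, which were not, held 16 and 28. Being unlisted says nothing about the level of a gene, and no methylation was measured. The part of CpG content in the listed values was not tested. Over 27 windows of HOX genes the median was 19 CpG, and over all 35116 windows of the table it was 11. The published ZBTB24 motif CAGGACCT, searched on both strands of the window of 250 bases before and 50 after the start, was in 0 of the 27 HOX windows and in 1.56% of all windows. At that share, 0 of 27 is near the background. Several of the 27 windows belong to HOXA3, HOXC4 and HOXC5 share the same window, and only HOXB1 stands for HOXB. The promoter of HOXB7, which has the ZBTB24 peak, was not searched.

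HOXB loci had the highest FPKM in the knockout library among the listed HOX loci, with smaller fold changes except for HOXB2. The locus that joins HOXB3, HOXB4, HOXB5 and HOXB6, whose reads cannot be assigned to 1 gene, stood at 128 FPKM in the knockout and 57.9 FPKM in wild type by the authors' deposited table (a log2 fold change of 1.14, q = 0.669). HOXB7 stood at 70.4 FPKM in the knockout and 34.9 FPKM in wild type by the authors' deposited table (a log2 fold change of 1.01, q = 0.695). HOXB2, an anterior gene known for hindbrain patterning, stood apart from both with 57.3 FPKM in the knockout and 1.71 FPKM in wild type by the authors' deposited table (a log2 fold change of 5.06, q = 0.630). It overlaps the antisense gene HOXB-AS1 by 1647 bp, so reads of these cannot be told apart. HOXB-AS1 itself stood at 4.79 FPKM in the knockout and 1.13 FPKM in wild type by the authors' deposited table (a log2 fold change of 2.09). HOXB-AS3, antisense to HOXB5 and HOXB6, stood at 2.27 FPKM in the knockout and 0.285 FPKM in wild type by the authors' deposited table (a log2 fold change of 2.99). The summed FPKM of the listed HOX loci was 255 in the knockout and 94.6 in wild type for HOXB, and 57.4 in the knockout and 0.443 in wild type for HOXD, both by the authors' deposited table. From the highest, the fold change of HOXB7 ranked 2223 of 2243, near the limit of 1 for listed loci. HOXB7 in wild type, at 34.9 FPKM, was above its 20.4 FPKM with shZBTB24 and 9.48 FPKM with shNT by the authors' deposited tables. Whether FPKM can be set side by side across these comparisons is not stated.

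HOXA4 and HOXC10 had lower levels in the knockout library than the listed HOXB loci. HOXA4 stood at 6.81 FPKM in the knockout and 1.65 FPKM in wild type by the authors' deposited table (a log2 fold change of 2.05, q = 0.871). For HOXC10, known for hindlimb and lumbar patterning, the values were 6.40 FPKM in the knockout and 2.42 FPKM in wild type by the authors' deposited table (a log2 fold change of 1.40, q = 0.956). HOXA4 overlapped its antisense gene HOXA-AS2 by 254 bp and HOXC10 overlapped HOXC-AS3 by 358 bp, whereas no assembled gene overlapped HOXD9, HOXD10, HOXD11 or HOXD13.

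In all, 9 HOX loci with 13 genes stood under the knockout's label. Past the threshold were 0 of the 9, against 0.312% of the 2243 loci, by the authors' deposited table. By unadjusted p under 0.05 the count was also 0 of 9, against 9.36% of all, by the authors' deposited table. A log2 fold change of at least 2 was reached by 5 of the 9 HOX loci and by 52.8% of all listed loci by the authors' deposited table, so the HOX loci stood near the background. Their median of 2.05 was also near the 2.12 of all listed loci. The share of HOX genes listed was 33.3%, with 6 of 10 in HOXB, 4 of 9 in HOXD, 2 of 11 in HOXA and 1 of 9 in HOXC, against 9.08% of named genes. By position along the axis, 3 of 8 anterior, 5 of 15 central and 5 of 16 posterior genes were listed. Joined loci count here once per gene name, so the HOXB3 to HOXB6 locus and the HOXD10 and HOXD11 locus raise these shares. The single value of the HOXB3 to HOXB6 locus is counted among both anterior and central genes.

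Under the label DNMT3BKOshZB stood 3 HOX loci of other positions, 3 of 39 genes against 4.5% of named genes. HOXA13, known for hindgut and limb patterning, had 0.542 FPKM under that label and 1.97 FPKM in wild type by the authors' deposited table (a log2 fold change of -1.86). HOXC8, a central gene, had 0.40 FPKM under that label and 1.59 FPKM in wild type by the authors' deposited table (a log2 fold change of -1.99). For HOXA2, a factor of the branchial arches, the values were 0.132 FPKM under that label and 0.567 FPKM in wild type by the authors' deposited table (a log2 fold change of -2.11). All 3 loci were under 2 FPKM in wild type, and 0 passed the threshold, against 0.36% of loci under that label, by the authors' deposited table. At an unadjusted p under 0.05 the HOX count was also 0, against 9.98% of loci, by the authors' deposited table.

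The fold changes of the HOXD loci rest on very low wild-type values. With 1 FPKM added to both groups, the log2 ratio of knockout over wild type was 4.56 for HOXD13, 4.23 for the HOXD10 and HOXD11 locus and 3.27 for HOXD9, and HOXB2, at 4.43, then ranked between HOXD13 and the HOXD10 and HOXD11 locus. Some markers of cell identity were listed as well, higher under the knockout's label and lower under DNMT3BKOshZB, as all rows of each label were. VIM, a mesenchymal filament gene, stood at 629 FPKM in the knockout and 3.80 FPKM in wild type by the authors' deposited table (p = 0.0032, q = 0.188). ALB, a liver gene, had 0.969 FPKM in the knockout and 0.0823 FPKM in wild type by the authors' deposited table. These were the 2 of 6 markers of other cells that were listed, against 9.08% of named genes, while COL1A1, PTPRC, PECAM1 and GFAP were not listed. The colon marker KRT20 stood at 1.49 FPKM in the knockout and 0.558 FPKM in wild type by the authors' deposited table, and the other 8 colon markers were not listed there. Under the label DNMT3BKOshZB, where the direction is fixed, 5 of the 9 were listed, against 4.5% of named genes. Of these 5, 0 were past the threshold by the authors' deposited table. CDH1 had 6.10 FPKM under that label and 27.3 FPKM in wild type by the authors' deposited table (p = 0.0159, q = 0.267). EPCAM had 76.6 FPKM under that label and 179 FPKM in wild type, and KRT18 had 329 FPKM under that label and 739 FPKM in wild type, by the authors' deposited table. For KRT8 the values were 297 FPKM under that label and 839 FPKM in wild type, and for CDX2 3.55 FPKM under that label and 8.39 FPKM in wild type, by the authors' deposited table. The part of these differences in the HOX values was not tested.

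Added FLAG-ZBTB24 gave no listed HOX gene, although 7.21% of all named genes were listed for it. HOXB7 and HOXA7 therefore have no value in that comparison, and of the 27 HOX non-coding genes 1 was listed. This was HOXB-AS1, at 1.10 FPKM with FLAG-ZBTB24 and 2.26 FPKM with the tag alone by the authors' deposited table (a log2 fold change of -1.04, q = 0.997). Of all 1754 listed loci, 0.228% rose and 0.342% fell past the threshold by the authors' deposited table. With an unadjusted p under 0.05 the share was 9.92% by the authors' deposited table. With no HOX locus in that table, these shares say nothing about HOX genes. Of the Polycomb genes, PCGF1 (log2 fold change -0.62) and CBX7 (0.59) were listed, of the trithorax-type genes AFF1 (0.50) and of the upstream genes ALDH1A3 (0.53), 0 of them past the threshold or at an unadjusted p under 0.05 by the authors' deposited table.

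Among the factors known to act on HOX genes, the shZBTB24 table held 15% of the upstream and retinoic acid list, 17.6% of the trithorax-type list, 10.3% of the Polycomb list and 18.2% of the cofactor list, against 8.04% of named genes. These lists are short, and each share rests on 2 or 3 genes. CDX2, the intestinal homeobox factor that activates HOX genes, rose to 18.8 FPKM with shZBTB24, against 6.90 FPKM with shNT, by the authors' deposited table (a log2 fold change of 1.45, q = 0.00493). It was 1 of 3 listed members of the 20 upstream and retinoic acid factors, and the retinoic acid-degrading enzyme gene CYP26B1 (log2 fold change -0.63, q = 0.140) and ZNF217 (-0.53, q = 0.186) did not pass by the authors' deposited table. Of 17 trithorax-type genes 3 were listed, and DPY30, a core subunit of the H3K4 methyltransferase complexes, rose to 141 FPKM with shZBTB24, against 77.5 FPKM with shNT, by the authors' deposited table (a log2 fold change of 0.86, q = 0.0183). The H3K27 demethylase gene KDM6A (-0.66, q = 0.125) and the H3K79 methyltransferase gene DOT1L (-0.58, q = 0.297) had lower log2 values and did not pass by the authors' deposited table. Of 29 Polycomb genes 3 were listed and 0 passed the threshold by the authors' deposited table. All 3 had an unadjusted p under 0.05, as did 97% of all listed loci, by the authors' deposited table. Among the listed Polycomb genes were PHF1 (log2 fold change -0.55) and RBBP7 (0.64) by the authors' deposited table. The DNA binding partners of HOX proteins gave 2 of 11 listed and 0 past the threshold. These 2 had an unadjusted p under 0.05, against the same 97% of listed loci. MEIS2 was among the 2 (log2 fold change 0.79, q = 0.140) by the authors' deposited table.

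Of 67 homeobox genes outside the clusters 5 were listed, or 7.46% against 8.04% of named genes, 1 higher and 4 lower by the authors' deposited table. LHX6, a LIM homeobox gene, fell to 1.62 FPKM with shZBTB24, against 3.72 FPKM with shNT, by the authors' deposited table (a log2 fold change of -1.20, q = 0.0206). SIX2 (log2 fold change -1.95), IRX3 (-0.84), DLX4 (-0.58) and MSX2 (0.74) did not pass by the authors' deposited table. CDH1, the epithelial cadherin gene, fell to 23.2 FPKM with shZBTB24, against 46.3 FPKM with shNT, by the authors' deposited table (q = 0.00493). CDH1 and CDX2 were the 2 of 9 colon markers listed for the knockdown, and 0 of 6 markers of other cells were. The part of CDX2 or of epithelial state in the rise of HOXB7 was not tested.

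Under the knockout's label stood 3 of the 20 upstream and retinoic acid genes, 1 of 11 cofactors, 1 of 29 Polycomb genes and 0 of 17 trithorax-type genes. These are 15%, 9.09%, 3.45% and 0% of each list, against 9.08% of named genes. No trithorax-type gene and 1 Polycomb gene, PHF1, were listed, at 38.7 FPKM in the knockout and 15.2 FPKM in wild type by the authors' deposited table (q = 0.640). Of the retinoic acid genes, ALDH1A2, which makes retinoic acid, stood at 1.10 FPKM in the knockout and 0.0750 FPKM in wild type by the authors' deposited table (a log2 fold change of 3.88). CYP26A1, which degrades it, stood at 1.43 FPKM in the knockout and 0.117 FPKM in wild type by the authors' deposited table (a log2 fold change of 3.61). GBX2 (log2 fold change 1.06) was the third upstream gene listed by the authors' deposited table, and PBX3 (1.35) the 1 cofactor, none of these past the threshold or at an unadjusted p under 0.05. No gene that flanks a cluster (SKAP2 and HOTTIP at HOXA, LOC101927166 and TTLL6 at HOXB, CISTR and FLJ12825 at HOXC, EVX2 and MTX2 at HOXD) was listed in any of the 3 tables. Those tables list 8.04% (shZBTB24), 7.21% (FLAG-ZBTB24) and 9.08% (knockout's label) of named genes. For so few flanking genes, none listed is near these shares and says nothing about the cluster edges. HOTTIP and EVX2 are also members of the context lists.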

How the data were processed

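RNA-seq and FLAG ChIP-seq of HCT116 cells were used as deposited. The submitters' processing notes name hg19 as the build, and MACS2, Cufflinks, StringTie and HISAT2 as tools, without versions. The FPKM values are those of the authors, 1 per group with replicates pooled by them. The log2 fold change (knockdown, FLAG-ZBTB24 or knockout over its control), and the p-value and q-value, are also as the authors deposited them. The peak score is the one the authors deposited in 1 merged list per factor. Depth per sample is unknown.

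From these files, HOX genes were found by name in the assembled annotation, and expression rows were matched after splitting joined symbols, each locus counted once. Peaks were counted over a cluster from the first to the last HOX gene with an overlap of 1 bp. No test was run, since no file gives values per library, and the calls are the authors' q under 0.05. Rows labelled DNMT3BKOshZB match no sample and were described apart from the knockout's rows, except in an alternative count that took both labels. Some wild-type values are taken from these rows, as stated. Listed HOX loci and all peaks over HOX clusters were named, as were, in 6 context lists, the loci past the threshold and otherwise the 3 with the largest fold change. A few items that this rule picks are not reported here by name, though counts and medians include them. Other context loci were named after their values were seen. Members and lists were chosen with earlier results of these data known. Overlap counting was tested on simulated peaks. Sequences are from RefSeq (GRCh38.p14). Python 3.11.15 with pandas 2.3.3 was used. Alternatives varied the names, call rule, FPKM minimum, pseudocount, cluster edges, overlap, peak score and promoter window.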

Additional observations from a re-analysis of the deposited data

How the results depend on the processing

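Of 56 alternative values for 18 results, 53 kept the reported count within 1.5 times or the reported direction, 3 moved and 0 reversed. Several of these values could not move. A stricter peak filter cannot change a cluster with 0 peaks, nor a call rule the FLAG-ZBTB24 comparison, which listed 0 HOX loci. The knockout median cannot reverse, since the label fixes the direction. These counts therefore say little about robustness. With an unadjusted p under 0.05 in place of q, the HOX loci called after knockdown were 2, since HOXA7 joined HOXB7. With a promoter window of 5000 bp, 2 HOX genes had a ZBTB24 promoter peak and 1 had a DNMT3B promoter peak, because a wider window takes in HOXB8 and HOXB5. The number of listed HOX loci in the knockout table was 12 with the rows of both labels. Leaving out a library was not possible, since values are pooled per group. No paired analysis was possible because no value per library is given. With 1 library in each group of the knockout comparison, and with lists that omit loci under a fold change limit, an absent HOX gene says nothing about its level.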

Other observations

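Context genes under the label DNMT3BKOshZB were lower than wild type, as the label's rows all were. The antisense gene HOXA10-AS had 4.72 FPKM under that label and 19.0 FPKM in wild type by the authors' deposited table. For HOXC-AS1 the values were 2.67 FPKM under that label and 8.43 FPKM in wild type by the authors' deposited table. The retinoic acid-synthesising enzyme gene ALDH1A3 had 17.7 FPKM under that label and 64.3 FPKM in wild type by the authors' deposited table (p = 0.0318, q = 0.341). CRABP2, a carrier of retinoic acid, had 75.9 FPKM under that label and 213 FPKM in wild type by the authors' deposited table. DNMT3B itself had 6.46 FPKM under that label and 21.1 FPKM in wild type by the authors' deposited table (q = 0.676).

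Of the 67 homeobox genes outside the clusters, 10 were listed for the knockout, 14.9% against 9.08% of named genes, and 8 under the label DNMT3BKOshZB, 11.9% against 4.5% of named genes. There were 0 of either past the threshold or at an unadjusted p under 0.05 by the authors' deposited table. LHX1 had 2.73 FPKM in the knockout and 0.122 FPKM in wild type by the authors' deposited table. PAX6, a factor of eye and pancreas, had 11.0 FPKM in the knockout and 1.64 FPKM in wild type by the authors' deposited table. Under the label DNMT3BKOshZB the log2 fold changes furthest from 0 were those of EMX1 (-4.03), MSX2 (-2.47) and LHX5 (-2.33) by the authors' deposited table. For FLAG-ZBTB24 over the tag alone, 4 of the 67 were listed, 5.97% against 7.21% of named genes. DLX2 (log2 fold change -1.15), NKX1-2 (-0.89) and PAX2 (-0.66) were furthest from 0 by the authors' deposited table, none past the threshold or at an unadjusted p under 0.05.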
